A study of Mus musculus with 18 samples.

Results

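The comparison set AML12 cells given 5 mM octanoate for 24 h against AML12 cells given phosphate-buffered saline (PBS) for the same time. Members were the 4 arrays labelled 5 mM octanoate and the 5 arrays labelled PBS, 9 of the 18 arrays in the series, which also had cells at 1 mM (n = 4) and 2 mM octanoate (n = 5). AML12 is an immortalized line of mouse hepatocytes, a single line derived from the liver of a mouse with a human transforming growth factor alpha transgene. Per the labels, cells of both groups were seeded at 350000 per well, left overnight and kept in DMEM with 10% fetal bovine serum during treatment. RNA was hybridised to Illumina mouse BeadChips, slides with 6 arrays of bead-bound probes. Of 45281 probes, 20536 were detected at p under 0.05 on at least 4 of 18 arrays and were tested. These stood for 10605 named genes, each represented by its tested probe with the highest mean. Levels are normalised log2 intensities, and differences are log2 units of 5 mM octanoate minus PBS with the standard error (SE) of the fit. Levels of different genes come from different probes and are not compared.

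Octanoate is a medium-chain fatty acid that enters mitochondria largely without the carnitine shuttle and is oxidised there to acetyl-CoA. Acetyl-CoA feeds the tricarboxylic acid cycle and ketone body synthesis and is the donor for the acetylation of histones, and the title of the series concerns lipid carbon on histones. In liver, fatty acids activate the nuclear receptor PPAR alpha, which induces fatty acid oxidation. Hepatocytes in culture divide and lose part of their secretory and detoxifying gene programme, so genes of proliferation and of hepatocyte function were both listed.

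Detected probes per array ranged from 18643 to 19842 at 5 mM (19279 ± 551, SD, n = 4), against 17446 to 18483 with PBS (17918 ± 391, SD, n = 5). The ranges of detected probes did not overlap. All PBS arrays lay on BeadChip 1 and all 5 mM arrays on BeadChip 3, so BeadChip and treatment cannot be told apart within these 9 arrays. A fit with BeadChip as a term reaches the comparison only through 1 mM replicate 1, on BeadChip 1, and the other 1 mM and 2 mM arrays, and its difference is called the BeadChip value below (for a gene list, the median of its members, with the number of members that fit called). Whether the replicates came from different cultures is not stated in the labels, so the p-values reflect the array-to-array spread alone, part of which may be technical. Hepatocyte markers were mixed: of 12 listed, 8 were measured, 6 of them higher at 5 mM and 2 lower, and their summed level ran from 87.8 to 89.4 log2 units at 5 mM, against 78.8 to 79.4 with PBS. Alb, Fabp1 and Cps1, which define mature hepatocytes, were not detected on any of the 9 arrays. Of 9 macrophage and leukocyte markers only Csf1r was measured (summed level 4.6 to 5.0 at 5 mM, against 4.5 to 4.9 with PBS), and Ptprc, Adgre1, Lyz2, Clec4f, Itgam and Cd3e were undetected. Of 8 cholangiocyte markers 5 were measured, with 1 higher and 3 lower (37.9 to 39.1 against 39.8 to 40.5), and Epcam was undetected. Of 8 stellate cell and fibroblast markers 3 were measured, with 2 higher (14.8 to 16.1 against 13.9 to 14.8), and of 8 endothelial markers 2, with 1 lower (9.2 to 9.3 against 9.7 to 10.3). The part of other cell types in the results was not tested beyond these levels, and fewer cells of a type and less RNA per cell cannot be told apart in bulk RNA.

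Octanoate at 5 mM was accompanied by differences in most measured genes. By limma's test with Benjamini-Hochberg adjustment, 10986 of 20536 probes (53.5%) and 6221 of 10605 genes (58.7%) passed adjusted p under 0.05. Higher genes numbered 3388 (31.9% of all), and lower genes 2833 (26.7%). Past 2-fold, 748 genes were higher (7.05%) and 536 lower (5.05%), and past 4-fold 123 were higher and 134 lower. In 5444 genes (51.3%) every 5 mM array lay above, or every one below, all PBS arrays. The median over all genes was 0.01 log2 units, and the middle of the distribution ran from −0.29 at the 25th percentile to 0.38 at the 75th. Detection differed as well, with 223 of the 10605 genes detected on all 5 mM arrays and no PBS array and 28 in the reverse case. Genes of either kind can pass the filter through a single group, which ties their direction to their detection. The counts of list members below include such genes. The 5 mM arrays also detected more probes in general and lay on another BeadChip. Scaling arrays to 1 median in place of quantile normalization moved the median over genes to 0.12, and split the called probes into 6191 higher and 3270 lower, against 5586 higher and 5400 lower in the reported fit. With BeadChip as a term 4965 probes were called, and 1706 genes were higher (16.1%) and 1269 lower (12%). Probes past 2-fold numbered 257 higher and 277 lower with the authors' processed values, against 1101 and 938 in the reported fit, so the sizes of fold changes depend on the processing. In 11 of the 54 gene lists below the shares of called members lay within 10 percentage points of those over all genes in both directions. Their counts are thus about average for these arrays in the reported fit, and the BeadChip fit was not compared in this way. They were apoptosis regulators, acetyl-CoA supply, fatty acid synthesis, glycolysis, NRF2 targets, the integrated stress response, heat shock proteins, matrix genes, YAP and TEAD targets, metallothioneins and iron handling, and S100 and cornified envelope genes. Every list median larger than 0.09 in size kept its sign under median scaling, without subtracting the shift over all genes. Fatty acid synthesis went from a median of 0.15 to 0.07, which is below the 0.12 of all genes under that scaling.

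**Figure D1:**
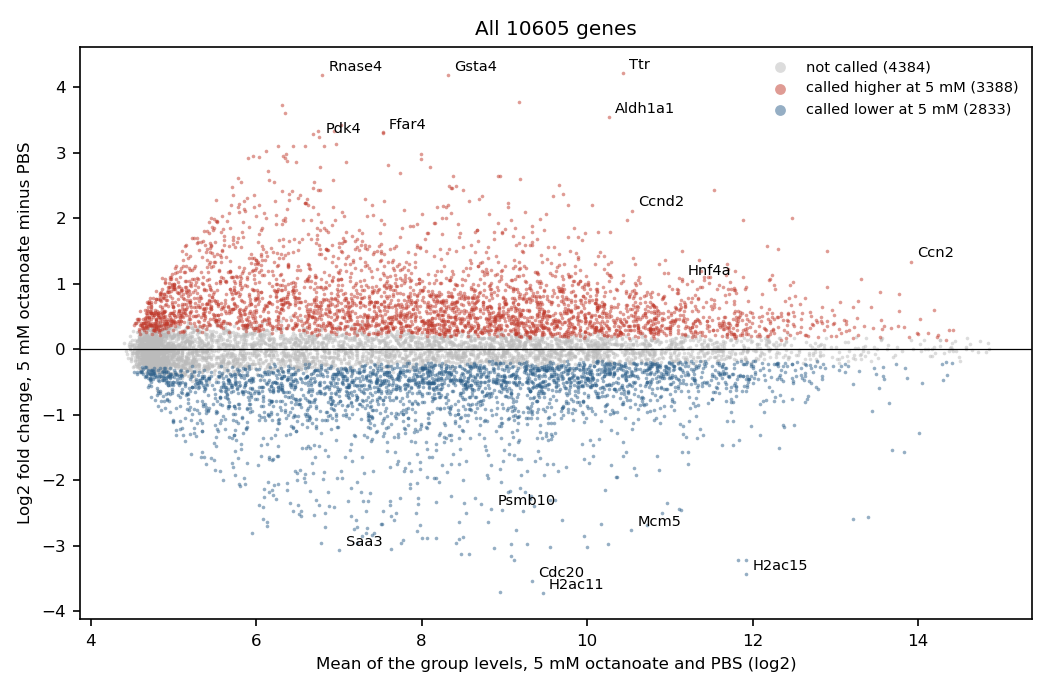
Log2 fold change at 5 mM octanoate minus PBS (vertical axis) against the mean of the group levels (horizontal axis, log2) for 10605 genes, 1 point a gene. Red points are the 3388 genes called higher and blue points the 2833 called lower at adjusted p under 0.05, with Ttr at 4.22 and H2ac11 at −3.72 near the extremes.

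Among the largest rises were genes of hepatocyte secretion, detoxification and lipid handling. Also among the 10 largest were Rnase4 (4.19, another probe at 1.09, detected on 1 of 5 PBS arrays) and Fbxo2 (3.77). So were Frmd5 (3.61, another probe at 0.34, detected on no PBS array) and Xpnpep2 (3.42, another probe at 0.14). Ttr, the plasma carrier of thyroid hormone and retinol-binding protein, was at 12.43, 12.62, 12.41 and 12.70 on the 5 mM arrays, compared with 8.26, 8.25, 8.25, 8.35 and 8.48 on the PBS arrays. Gsta4, which conjugates glutathione to the lipid aldehyde 4-hydroxynonenal, was at 10.41, 10.62, 10.23 and 10.40 at 5 mM, against 6.03, 6.10, 6.25, 6.47 and 6.29 in PBS cells. For both genes the lowest 5 mM array stood over 3 log2 units above the highest PBS array. Ffar4, a cell surface receptor for medium- and long-chain fatty acids, was at 9.06, 9.19, 9.22 and 9.26 at 5 mM octanoate, compared with 5.78, 6.07, 5.77, 5.80 and 5.99 with PBS, a rise of 3.30 ± 0.12 (SE; 9.87-fold, adjusted p = 9.95e-15). Its PBS levels were dim and close together, and no 5 mM array came near them.

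Among the 11th to 20th largest rises, Prune2 rose by 3.32, Ndrg2, a gene of the N-myc downstream-regulated family, by 3.29 (another probe at 1.64) and Hmgn3, a nucleosome-binding protein, by 3.11. Both creatine kinases on that part of the list rose, the mitochondrial Ckmt1 by 3.11 ± 0.18 and the cytosolic Ckb by 3.10 ± 0.12. Ckmt1 was at 7.81, 7.83, 7.78 and 7.86 on the 5 mM arrays, against 4.36, 4.55, 4.79, 5.25 and 4.63 on the PBS arrays, with 1 of 5 PBS arrays detected. Prodh2, hydroxyproline dehydrogenase of mitochondria, rose by 3.13 ± 0.09, and Zcchc18 by 3.10. Pdzk1, a scaffold of membrane transporters that stabilises the HDL receptor in liver, was undetected in all PBS cells and higher by at least 6.87-fold, while other probes of Pdzk1 gave as little as 0.83. Such a bound sets the 5 mM mean against the higher of the dimmest detected signal and the probe's own signal on each PBS array. It holds only for the processing used here. With the authors' processed values the difference was 0.85 log2 units for Pdzk1. Across the genes given such a bound it ran from 0.28 (Cd55) to 1.20 (Aldh1a7), in each case below the bound. The 11th to 20th largest falls held Saa3, Plk1, Kif22 and Lig1, described below, and 6 other genes. Anln, the anillin of the cleavage furrow, fell by 2.97 (another probe at −1.91), the kinase Pbk by 2.97, and the kinesins Kif20b and Kif15 by 2.96 each. Hirip3, a histone chaperone, fell by 3.03. Sapcd2, a regulator of spindle orientation, fell by 3.05. The BeadChip values of these 20 genes kept their sign, and each passed adjusted p under 0.05 in that fit as well. Larger falls included H2ac11 (−3.72), Birc5 (−3.21), Bub1b (−3.12, another probe at −2.43) and D17H6S56E-5 (−3.12, another probe at −0.79).

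**Figure D2:**
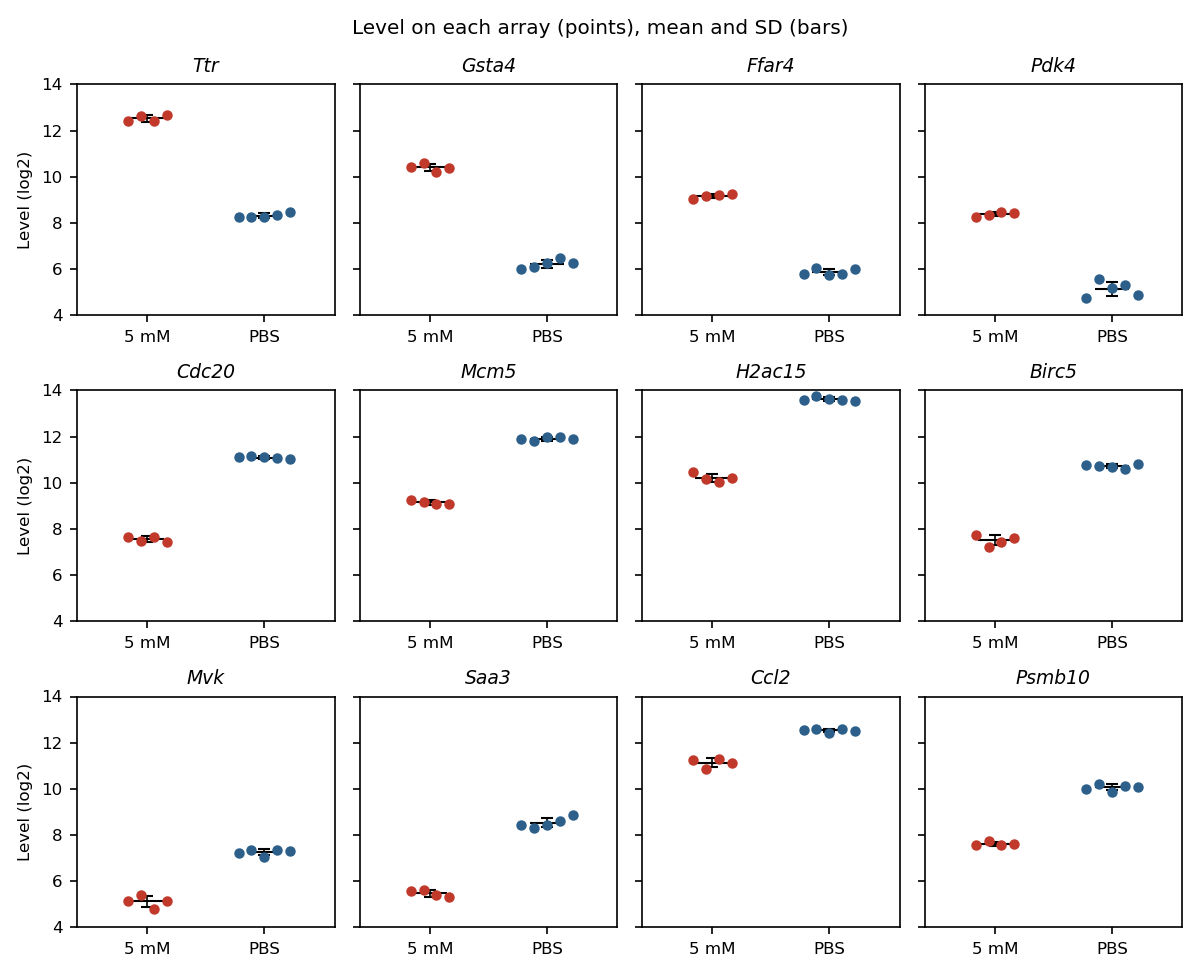
Log2 level on each array for 12 genes, with the 4 arrays at 5 mM octanoate in red, the 5 PBS arrays in blue, and the mean ± SD as black bars. In each of these 12 genes the 2 groups do not overlap, with Ttr, Gsta4, Ffar4 and Pdk4 higher at 5 mM and the other 8 lower.

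Genes that drive mitosis and DNA replication were lower in nearly every case. The promoters of the leading falls show the sequence context of these genes. They are printed for the 2 mitotic genes with the smallest adjusted p, Cdca8 (borealin, which targets Aurora B to centromeres) and Kif22 (a chromosome-arm kinesin), as the RefSeq window of 250 bases before to 50 after the start on GRCm38.p6. Capitals mark the letters TTTGAA, the core of the cell cycle homology region, and CCAAT, on either strand. In dividing cells the first is bound by the MuvB complex, with repressors in quiescence and activators in mitosis, and the second by NF-Y.
Cdca8, chr4:124936868-124937167, minus strand: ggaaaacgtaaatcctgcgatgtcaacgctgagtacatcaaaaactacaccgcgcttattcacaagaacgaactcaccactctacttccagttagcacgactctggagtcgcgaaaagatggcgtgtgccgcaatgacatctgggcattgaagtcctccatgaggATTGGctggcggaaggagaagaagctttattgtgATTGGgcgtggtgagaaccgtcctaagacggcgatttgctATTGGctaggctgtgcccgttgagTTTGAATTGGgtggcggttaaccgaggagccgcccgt
Kif22, chr7:127042371-127042670, minus strand: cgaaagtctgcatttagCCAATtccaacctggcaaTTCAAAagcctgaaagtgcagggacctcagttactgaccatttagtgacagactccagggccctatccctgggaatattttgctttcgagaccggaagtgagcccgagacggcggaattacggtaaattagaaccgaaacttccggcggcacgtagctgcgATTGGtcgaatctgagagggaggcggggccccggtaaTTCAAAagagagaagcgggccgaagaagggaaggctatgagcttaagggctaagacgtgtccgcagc
In Cdca8 the match to TTTGAA ran from 14 to 19 bases after the start and overlapped the fourth CCAAT match, and in Kif22 one match lay from 17 to 12 bases before it. TTTGAA on either strand was in the promoter of 23 of the 28 mitotic genes that had one in the table (82.1%), against 5878 of 32851 promoters of the whole table (17.9%). CCAAT was in 20 of 28 (71.4%), against 37.4% of all promoters. A listed gene counted if any of its promoters in the table had the letters, while the share of the whole table is per promoter. The shares are therefore not of the same kind. A match is a description of letters and shows no binding.

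Of 32 measured genes of the mitotic spindle and checkpoint, 31 fell, 30 of them by at least 2-fold, and 0 rose (median −2.62, BeadChip value −2.43 with 0 called higher and 29 lower). These counts stand against 26.7% of all genes lower and 5.05% lower by 2-fold. Cdca8 was at 7.67, 7.35, 7.51 and 7.51 at 5 mM, compared with 10.52, 10.72, 10.74, 10.68 and 10.63 in PBS cells. Kif22 was at 7.99 to 8.13 on the 4 arrays at 5 mM, against 10.96 to 11.19 on the 5 PBS arrays. Within each group the arrays lay close together, and the groups were far apart. Cdc20, which activates the anaphase-promoting complex, was at 7.67, 7.50, 7.66 and 7.43 on the 5 mM arrays, compared with 11.11, 11.17, 11.11, 11.06 and 11.04 on the PBS arrays, and Plk1, the polo-like kinase of mitotic entry, at 8.60, 8.42, 8.33 and 8.65 at 5 mM, against 11.57, 11.50, 11.61, 11.49 and 11.37 in PBS cells. Both groups were tight here too, and the falls were 11.6-fold and 8.04-fold (adjusted p = 3.38e-16 and 5.13e-16).

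All 34 measured genes of DNA replication were lower, 31 of them by at least 2-fold, against 26.7% and 5.05% of all genes. Their median was −2.21 (BeadChip value −2.28 with 0 called higher and 33 lower). Mcm5, a subunit of the replicative helicase, was at 9.15 ± 0.09 at 5 mM (SD, n = 4), against 11.91 ± 0.07 with PBS (SD, n = 5). Mcm10, which activates that helicase, fell by 2.64 ± 0.07, Pold1, the catalytic subunit of polymerase delta, by 2.60 ± 0.08, and Lig1, which joins Okazaki fragments, by 2.97 ± 0.10. Probes of Lig1 ran from −2.97 to −0.80 and those of Mcm10 from −2.64 to −0.77, all lower at 5 mM.

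Repair genes had 21 of 31 lower, 4 higher and 6 not called, against 26.7% lower and 31.9% higher among all genes (median −0.69, BeadChip value −0.57 with 2 called higher and 14 lower). Fancd2, the ubiquitinated switch of crosslink repair, was at 5.31 ± 0.22 at 5 mM (SD, n = 4), against 7.77 ± 0.21 with PBS (SD, n = 5). Blm, the Bloom syndrome helicase, fell by 2.27, Rad54l, a DNA translocase of homologous recombination, by 1.96 and Ung, the uracil glycosylase, by 1.71. Another probe of Ung was at −0.09. Regulators of G1 and S phase split, with 17 of 31 lower and 11 higher (median −0.29, BeadChip value −0.47 with 6 called higher and 9 lower). Foxm1, the transcription factor of mitotic genes, was at 6.44, 6.07, 5.96 and 5.90 at 5 mM, compared with 8.58, 8.55, 8.72, 8.46 and 8.52 in PBS cells. Ccne2, cyclin E2, fell by 2.37 and Lin54, the DNA-binding subunit of MuvB, by 1.97 (another probe at −1.15). Ccnd2, cyclin D2, went the other way, at 11.65, 11.64, 11.49 and 11.62 at 5 mM octanoate, against 9.49, 9.48, 9.46, 9.36 and 9.60 with PBS (4.36-fold, adjusted p = 2.48e-13). Myc, the proto-oncogene that drives growth, was at 5.85, 5.85, 5.85 and 5.80 on the 5 mM arrays, compared with 6.91, 6.77, 6.92, 6.60 and 6.59 on the PBS arrays and fell by 0.92 ± 0.09. Tubulins, the subunits of microtubules, had 10 of 12 genes lower and 1 higher (median −0.68, BeadChip value −0.87 with 0 called higher and 8 lower). Tubb6 fell by 1.56, Tuba1a by 1.35, Tube1 by 1.20 and Tubb4b by 0.81.

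Of 20 measured p53 targets 18 rose and 0 fell, against 31.9% higher among all genes (median 0.71, BeadChip value 0.73 with 12 called higher and 0 lower). Dcxr, a carbonyl reductase, was at 10.10, 10.22, 9.99 and 10.13 at 5 mM, against 8.61, 8.63, 8.27, 8.59 and 8.43 in PBS cells. Zmat3, an RNA-binding p53 target, rose by 1.26, Trp53inp1, an autophagy and stress gene, by 1.33, and the death receptor Fas by 1.38, with probes of Fas from 0.14 to 1.42. Apoptosis regulators had 9 of 27 higher and 8 lower, near the 31.9% and 26.7% of all genes, and none past 2-fold. Their median was 0.10 (BeadChip value 0.02 with 4 called higher and 4 lower). Casp6, an executioner caspase, rose by 0.98 and Mlkl, the effector of necroptosis, by 0.91, while Fadd, the adaptor of death receptors, fell by 0.93 and Gsdmd, the pore-former of pyroptosis, by 0.79.

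Histone genes are given by histone type. Of all genes 31.9% were higher, 7.05% by at least 2-fold, and 26.7% lower, 5.05% by at least 2-fold. Replication-dependent histones had 18 of 47 genes higher and 23 lower (median −0.33, BeadChip value −0.36 with 14 called higher and 17 lower). Of 15 H2A genes 12 were lower, 10 by at least 2-fold, and 2 higher (median −1.57, from −3.72 to 1.32). H2ac15 was at 10.45, 10.16, 10.02 and 10.19 at 5 mM octanoate, compared with 13.60, 13.77, 13.63, 13.61 and 13.56 with PBS. H2ac12 fell by 3.21, H2ac22 fell by 3.21 and H2ac21 fell by 3.70. Of 11 H2B genes 8 were higher and 1 lower (median 0.73, from −0.77 to 0.86), none by 2-fold. All 8 H3 genes were below 0, with 7 called lower (median −0.46), and of 11 H4 genes 7 were higher and 3 lower (median 0.49). H1 had 2 measured genes with 1 higher. Differences between types were not tested. Copies of a histone type are near-identical, replication-dependent transcripts lack a poly(A) tail, and probe sequences were not used here, so signals of single histone genes are uncertain. Of 8 replication-independent histones 4 were lower and 2 higher (median −0.23, BeadChip value −0.20 with 1 called higher and 2 lower). H2ax, the variant phosphorylated at DNA breaks, fell by 1.91 and H2az1 by 1.16, H2aj rose by 0.74, and Macroh2a1 fell by 0.40, with another probe at 0.35 and a BeadChip value of −0.34 that was not called (adjusted p = 0.218).

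**Figure D3:**
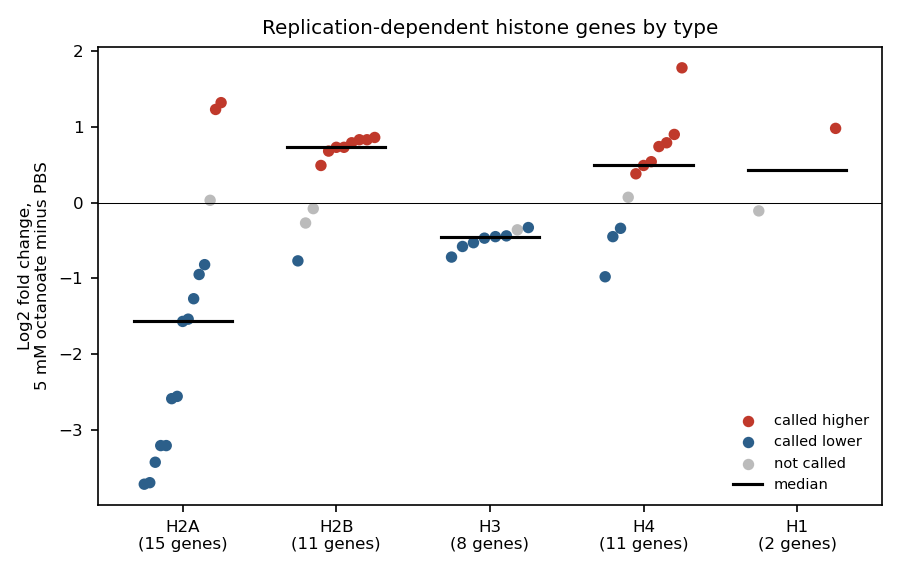
Log2 fold change at 5 mM octanoate minus PBS (vertical axis) of 47 replication-dependent histone genes by type, 1 point a gene, coloured by its call, with a black line at the median. H2A genes spread from −3.72 to 1.32, while H2B genes lie between −0.77 and 0.86.

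Enzymes that write and erase histone acetylation, which bear on the title of the series, had list medians on either side of 0. Of 17 histone acetyltransferases 7 were lower and 3 higher (median −0.23, BeadChip value −0.19 with 0 called higher and 4 lower), against 26.7% lower and 31.9% higher among all genes. Hat1, the enzyme that acetylates newly made histone H4, was at 10.60, 10.17, 10.29 and 10.30 on the 5 mM arrays, against 12.16, 12.09, 12.18, 12.09 and 11.93 on the PBS arrays and fell 3.37-fold (adjusted p = 2.37e-12). Kat2a fell by 0.77 and Kat7 by 0.79. Kat5 fell by 0.83 and the coactivator Crebbp by 0.93 ± 0.19, but their BeadChip values of −0.51 and −0.04 were not called (adjusted p = 0.0774 and 0.951). Its paralogue Ep300 was at −0.23 ± 0.10 (adjusted p = 0.0561) and Kat2b at 0.06 ± 0.08 (adjusted p = 0.551), neither called, although Ep300 was called under 6 of 19 alternatives, among them the fit without PBS replicate 4 (−0.28), and Kat2b under 0. Of 18 histone deacetylases and sirtuins 8 were higher and 3 lower (median 0.21, BeadChip value 0.24 with 2 called higher and 1 lower). Hdac11 rose by 1.39 ± 0.14 and Hdac8 by 0.99 ± 0.11. Sirt1, the NAD-dependent deacetylase, was at 6.81, 6.91, 7.09 and 7.06 at 5 mM, compared with 7.63, 7.48, 7.80, 7.63 and 7.53 in PBS cells and fell by 0.65. The corepressor Sin3a fell by 0.66, with a BeadChip value of −0.38 that was not called (adjusted p = 0.258), and Hdac3 was at −0.13 ± 0.07 (adjusted p = 0.112), and was called under 2 of 19 alternatives, the authors' processed values (−0.11) and the fit without PBS replicate 5 (−0.16).

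Among 16 genes that supply acetyl-CoA, 6 rose and 4 fell, shares near the 31.9% and 26.7% of all genes (median 0.03, BeadChip value −0.02 with 2 called higher and 1 lower). Pdk4, the kinase that switches off pyruvate dehydrogenase, was at 8.27, 8.35, 8.48 and 8.43 at 5 mM octanoate, against 4.77, 5.56, 5.20, 5.30 and 4.88 with PBS, a 9.44-fold rise. Acss2, which makes acetyl-CoA from acetate in cytosol and nucleus, was at 8.36, 8.03, 7.91 and 8.13 on the 5 mM arrays, compared with 6.53, 6.57, 6.05, 6.43 and 6.69 on the PBS arrays, 3.15-fold higher. Acly, which cleaves citrate to acetyl-CoA, was at 11.70, 11.76, 11.69 and 11.71 at 5 mM, against 11.82, 11.81, 11.89, 11.92 and 11.94 in PBS cells, and its difference of −0.16 ± 0.09 was not called (adjusted p = 0.159). Pdk1 fell by 0.81 and the phosphatase Pdp2 by 0.54 (BeadChip value −0.82), and the BeadChip value of Pdk1 (−0.56) was not called (adjusted p = 0.258).

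More genes of fatty acid oxidation rose than fell, in mitochondria and in peroxisomes. Of 13 measured PPAR alpha targets 11 rose, 8 by at least 2-fold, and 0 fell (median 1.79, BeadChip value 1.81 with 9 called higher and 0 lower), against 7.05% of all genes higher by 2-fold. Ppara itself and Cpt1a, the gate of the carnitine shuttle, were not measured. Angptl4, a secreted inhibitor of lipoprotein lipase, was at 11.34, 11.68, 11.40 and 11.44 at 5 mM octanoate, compared with 9.60, 9.50, 9.47, 9.59 and 9.31 with PBS. Acot1, a cytosolic acyl-CoA thioesterase, was at 13.51, 13.50, 13.52 and 13.40 on the 5 mM arrays, against 11.48, 11.55, 11.48, 11.45 and 11.43 on the PBS arrays. Its relatives Acot2, of mitochondria, and Acot6 rose by 1.79 and 1.58, with another probe of Acot2 at −0.49. Acot4, a peroxisomal thioesterase that no PBS array detected, was higher by at least 4.25-fold.

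Of 25 mitochondrial genes of fatty acid oxidation 16 rose and 1 fell, against 31.9% and 26.7% of all genes. Their median was 0.41 (BeadChip value 0.26 with 8 called higher and 0 lower). Slc25a20, the acylcarnitine carrier, was at 9.97, 9.94, 10.06 and 9.99 at 5 mM, compared with 8.30, 8.21, 8.47, 8.37 and 8.51 in PBS cells. Acaa2, a thiolase, rose by 1.51 ± 0.09, Etfdh, which passes electrons to ubiquinone, by 1.24 ± 0.09 and Etfb by 1.02 ± 0.08. Acadm, the dehydrogenase for medium-chain acyl-CoA such as octanoyl-CoA, was at 11.49, 11.67, 11.46 and 11.59 at 5 mM octanoate, against 10.63, 10.63, 10.76, 10.56 and 10.68 with PBS, 1.86-fold higher (adjusted p = 4.11e-09). Cpt2 rose by 0.41, but its BeadChip value was 0.03 (adjusted p = 0.921). Of 17 peroxisomal genes 14 rose and 0 fell (median 0.68, BeadChip value 0.70 with 8 called higher and 0 lower). Acaa1b, a peroxisomal thiolase, rose by 1.85, Acox2, the oxidase of branched chains and bile acid precursors, by 1.62 and Ech1 by 0.95. Acyl-CoA synthetases and thioesterases had 11 of 20 higher and 4 lower (median 0.36, BeadChip value 0.28 with 7 called higher and 2 lower).

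Ketone body genes were few, with 3 of 7 higher and 2 lower, against 31.9% and 26.7% of all genes. Their median was 0.11 (BeadChip value 0.38 with 3 called higher and 1 lower). Bdh1, which interconverts the ketone bodies, was at 6.19, 6.46, 6.24 and 6.14 on the 5 mM arrays, compared with 4.52, 4.56, 4.49, 4.61 and 4.94 on the PBS arrays, and 1 PBS array detected it, while another probe differed by 0.60. Bdh2 rose by 1.88 and Slc16a6, a ketone body exporter in zebrafish liver, by 2.21, with a BeadChip value of 1.37. Aacs, which diverts acetoacetate to lipid synthesis, fell by 1.13. Of 25 genes of lipid droplets and triglyceride turnover 14 rose and 1 fell (median 0.38, BeadChip value 0.35 with 8 called higher and 0 lower). Cideb, which helps load lipid onto VLDL, was at 9.89 ± 0.11 at 5 mM (SD, n = 4), against 7.96 ± 0.20 with PBS (SD, n = 5). Fitm2, of droplet budding, rose by 1.64 (another probe at 0.51), Apob, the backbone of VLDL, by 1.17 and Lipa, the lysosomal lipase, by 1.04. Fatty acid synthesis and desaturation had 7 of 17 higher and 4 lower, near the shares of all genes, and the balance of calls turned round in the BeadChip fit (median 0.15, BeadChip value 0.05 with 1 called higher and 3 lower). Scd1, the delta-9 desaturase, rose 2.84-fold and Fads3 by 0.46, while Elovl6 fell by 0.45 and Fads2 by 0.39 (BeadChip value −0.74). The BeadChip values of Elovl6 (−0.05) and Fads3 (0.10) were not called (adjusted p = 0.894 and 0.747).

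Cholesterol genes ran the other way. For Mvk, mevalonate kinase, and Cyp51, lanosterol demethylase, the 2 falls with the smallest adjusted p, the promoters are printed with CCAAT in capitals. Sterol regulatory element-binding proteins act on such promoters together with NF-Y, and TCACNCCAC, a spelling of their element, was searched on both strands.
Mvk, chr5:114444019-114444318, plus strand: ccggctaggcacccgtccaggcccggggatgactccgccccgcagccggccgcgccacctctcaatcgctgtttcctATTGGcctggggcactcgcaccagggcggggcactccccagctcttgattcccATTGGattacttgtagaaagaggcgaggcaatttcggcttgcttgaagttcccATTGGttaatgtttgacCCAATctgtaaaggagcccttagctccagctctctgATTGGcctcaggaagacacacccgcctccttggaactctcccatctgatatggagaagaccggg
Cyp51, chr5:4104648-4104947, minus strand: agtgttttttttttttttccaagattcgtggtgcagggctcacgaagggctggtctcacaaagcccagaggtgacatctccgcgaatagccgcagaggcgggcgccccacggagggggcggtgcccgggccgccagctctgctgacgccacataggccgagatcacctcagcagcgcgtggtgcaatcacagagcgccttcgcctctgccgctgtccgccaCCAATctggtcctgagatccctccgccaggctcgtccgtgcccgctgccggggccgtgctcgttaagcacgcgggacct
CCAAT was in 14 of the 15 genes of the list with a promoter in the table (93.3%), against 37.4% of all promoters. The first share is again per gene, over any of its promoters, and the second per promoter. TCACNCCAC was in 0 of these 15 genes and in 408 of 32851 promoters (1.24%), which says only that these letters are not in the windows of the 15 genes. Cholesterol synthesis and uptake had 18 measured genes, of which 12 fell, 5 by at least 2-fold, and 1 rose. The shares over all genes were 26.7%, 5.05% and 31.9%. The median of the list was −0.67 (BeadChip value −0.67 with 0 called higher and 10 lower). Mvk was at 5.13, 5.40, 4.81 and 5.15 at 5 mM octanoate, compared with 7.21, 7.34, 7.06, 7.37 and 7.31 with PBS, and Cyp51 at 8.78, 8.64, 8.68 and 8.44 on the 5 mM arrays, against 10.19, 10.26, 10.02, 10.16 and 10.28 on the PBS arrays. Fdps, farnesyl diphosphate synthase, fell by 1.30 ± 0.08 and Sqle, the squalene epoxidase, by 1.02 ± 0.08. The median of this list was −0.52 at 1 mM and −0.64 at 2 mM relative to PBS, beside −0.51 and −0.69 for DNA replication and −0.26 and −0.36 for the mitotic list.

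Bile acid genes were measured in 9 of 27 cases, with 7 higher and 0 lower, against 31.9% and 26.7% of all genes. Their median was 1.00 (BeadChip value 0.98 with 6 called higher and 0 lower). Abcb4, the exporter of phosphatidylcholine into bile, was at 7.68, 8.10, 7.69 and 7.77 at 5 mM, compared with 5.13, 4.75, 4.80, 5.01 and 4.76 in PBS cells, and 2 PBS arrays detected it. Cyp27a1, the sterol 27-hydroxylase, was at 9.67, 9.64, 9.79 and 9.55 at 5 mM octanoate, against 6.85, 7.31, 7.06, 7.14 and 7.51 with PBS. Klb, the coreceptor for FGF19 and FGF21, rose by 2.09 ± 0.13, and the basolateral exporter Abcc3 by 1.00 ± 0.08.

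Glycolysis had 6 of 18 genes lower and 4 higher, near the shares of all genes (median −0.09, BeadChip value −0.17 with 3 called higher and 3 lower), with Pfkm, the muscle-type phosphofructokinase, at 11.60, 11.70, 11.43 and 11.34 on the 5 mM arrays, compared with 10.36, 10.32, 10.37, 10.30 and 10.35 on the PBS arrays. The liver-type Pfkl fell by 0.90 (another probe at 0.00) and the glucose transporter Slc2a1 by 0.93, whose BeadChip value was −0.53, while Pklr rose by 0.85. Gapdh, often used as a reference transcript, fell by 0.22 and Actb by 0.19, with other probes of Actb from −0.70 to 0.07. The call of Actb (adjusted p = 0.027) was lost without 5 mM replicate 1 (−0.19) or 3 (−0.18), or without PBS replicate 1 (−0.17), 4 (−0.18) or 5 (−0.18). Their BeadChip values of −0.31 and 0.01 were not called (adjusted p = 0.169 and 0.986). Gluconeogenesis and glycogen had 7 of 12 higher and 1 lower, against 31.9% and 26.7% of all genes. Their median was 0.31 (BeadChip value 0.22 with 5 called higher and 1 lower). The higher genes included Fbp2, at least 3.09-fold higher and detected on no PBS array, so that its direction is tied to its detection. They also included the glycogen-targeting subunits Ppp1r3c (1.82) and Ppp1r3b (0.88). Ugp2, which makes UDP-glucose, rose by 0.91.

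Tricarboxylic acid cycle genes had 7 of 19 lower and 4 higher, against 26.7% and 31.9% of all genes, and no lower call was left in the BeadChip fit (median −0.16, BeadChip value −0.12 with 1 called higher and 0 lower). Idh1 rose 2.06-fold and Suclg1 by 0.47, and Me2 and Mdh2 fell by 0.54 and 0.30. The BeadChip values of Suclg1, Me2 and Mdh2 were not called (adjusted p = 0.183, 0.0763 and 0.328). Oxidative phosphorylation had 31 of 69 genes higher and 11 lower, against 31.9% and 26.7% of all genes, with 1 past 2-fold and most calls lost in the BeadChip fit (median 0.17, BeadChip value 0.14 with 8 called higher and 3 lower). Uqcrh, a subunit of complex III, was at 13.06, 12.99, 12.99 and 12.97 at 5 mM, against 11.85, 11.92, 11.95, 12.06 and 12.08 in PBS cells. Ndufs4, Ndufa6 and Ndufv3 of complex I rose by 0.79, 0.78 and 0.74, with another probe of Ndufv3 at −0.25. Amino acid breakdown and the urea cycle had 16 of 25 higher and 2 lower (median 0.41, BeadChip value 0.49 with 10 called higher and 2 lower). Ddc, aromatic amino acid decarboxylase, was at 7.47, 7.48, 7.61 and 7.44 at 5 mM octanoate, compared with 4.52, 4.36, 4.85, 4.38 and 4.68 with PBS, and 1 PBS array detected it. Glud1, glutamate dehydrogenase, rose by 1.14 and Fah, the last step of tyrosine breakdown, by 0.93.

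Detoxification genes were mostly higher, against 31.9% higher, 7.05% by at least 2-fold, and 26.7% lower among all genes. Of 22 glutathione S-transferases 19 rose, 14 by at least 2-fold, and 1 fell (median 1.53, BeadChip value 1.40 with 16 called higher and 1 lower). Gstt1 was at 9.76, 9.67, 9.70 and 9.67 on the 5 mM arrays, against 6.94, 7.11, 6.79, 7.21 and 7.20 on the PBS arrays, Gstt3 rose by 2.21 and Gstk1, of mitochondria and peroxisomes, by 1.51. Of 13 aldehyde dehydrogenases 10 rose and 1 fell (median 0.71, BeadChip value 0.87 with 7 called higher and 1 lower). Aldh1a1, a retinaldehyde dehydrogenase, was at 11.99, 11.94, 12.10 and 12.13 at 5 mM, compared with 8.52, 8.47, 8.50, 8.58 and 8.40 in PBS cells. Its relative Aldh1a7, detected on no PBS array, was at least 10-fold higher, and Aldh3b1 rose by 1.43. The paralogues Aldh1a1 and Aldh1a7 are close in sequence, and probe specificity was not examined.

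Cytochrome P450s and conjugating enzymes were measured in 25 of 72 cases, with 17 higher, 11 by at least 2-fold, and 2 lower. The shares over all genes were 31.9%, 7.05% and 26.7%. The median of the list was 0.78 (BeadChip value 0.71 with 12 called higher and 0 lower). Cyp2c67 was at 8.28 to 8.56 on the 4 arrays at 5 mM, against 4.84 to 5.27 on the 5 PBS arrays. Cyp2d22 rose by 2.51 ± 0.09 with another probe at 0.10, Ugt1a10, a glucuronosyltransferase, by 1.79 ± 0.07 (another probe at 0.52) and Tpmt, thiopurine methyltransferase, by 1.56 ± 0.09. NRF2 targets had 10 of 25 higher and 6 lower, near the 31.9% and 26.7% of all genes. Their median was 0.18 (BeadChip value 0.05 with 6 called higher and 3 lower). Ephx1, microsomal epoxide hydrolase, was at 12.79, 12.69, 12.70 and 12.84 on the 5 mM arrays, compared with 10.33, 10.34, 10.34, 10.36 and 10.24 on the PBS arrays and rose 5.4-fold (adjusted p = 3.5e-16). Blvrb, biliverdin reductase B, rose by 2.34 and the exporter Abcc4 by 1.03, while Keap1, the adaptor that directs NRF2 to degradation, fell by 1.01.

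Secreted liver proteins were mostly higher as well, against 31.9% higher, 7.05% by at least 2-fold, and 26.7% lower among all genes. Of 23 plasma carriers and apolipoproteins 17 were higher, 13 by at least 2-fold, and 2 lower (median 1.10, BeadChip value 1.25 with 15 called higher and 1 lower). Fcgrt, the receptor that rescues albumin and immunoglobulin G from breakdown, was at 9.44 ± 0.15 at 5 mM (SD, n = 4), against 6.54 ± 0.08 with PBS (SD, n = 5). Apoc4 was at 8.60, 8.46, 8.67 and 8.34 at 5 mM octanoate, compared with 5.43, 5.59, 5.81, 5.75 and 5.71 with PBS. Ambp, the precursor of alpha-1-microglobulin and bikunin, rose by 1.98 ± 0.08. Coagulation factors, complement and serpins had 17 of 29 higher and 1 lower (median 0.88, BeadChip value 0.79 with 15 called higher and 1 lower). C4bp, an inhibitor of complement C4, was at 8.13, 8.31, 8.32 and 8.11 on the 5 mM arrays, against 5.55, 5.83, 5.76, 5.49 and 5.57 on the PBS arrays, while another probe differed by 1.16. Pros1, protein S, rose by 1.56, Cd59a, which blocks the membrane attack complex, by 1.13, and Cd55, a further complement inhibitor undetected with PBS, was higher by at least 2.5-fold.

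Hepatocyte transcription factors had 13 of 26 higher and 2 lower (median 0.29, BeadChip value 0.45 with 10 called higher and 2 lower). Hnf4a, the nuclear receptor that maintains hepatocyte identity, was at 11.63, 11.77, 11.75 and 11.58 at 5 mM, compared with 10.71, 10.53, 10.60, 10.79 and 10.39 in PBS cells. Rora, a nuclear receptor of clock and lipid genes, was at 7.78, 7.69, 7.73 and 7.85 at 5 mM octanoate, against 5.64, 6.04, 5.90, 5.68 and 5.82 with PBS. Both were separated from PBS by more than the spread within either group. Hhex rose by 0.98, and Creb3l3, a liver factor of lipid and acute-phase genes, was undetected with PBS and higher by at least 2.91-fold. Biliary, progenitor and keratin genes had 6 of 18 higher and 8 lower, against 31.9% and 26.7% of all genes, and no lower call was left in the BeadChip fit (median −0.23, BeadChip value −0.11 with 2 called higher and 0 lower). Krt20 rose by 1.12 and Sox4 by 0.68 (another probe at −0.16, and 0.26 as the uncalled mean of its probes), and Krt7 and Vim fell by 1.08 and 0.65, with BeadChip values of −0.68 and −0.32 that were not called (adjusted p = 0.0868 and 0.291).

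**Figure D4:**
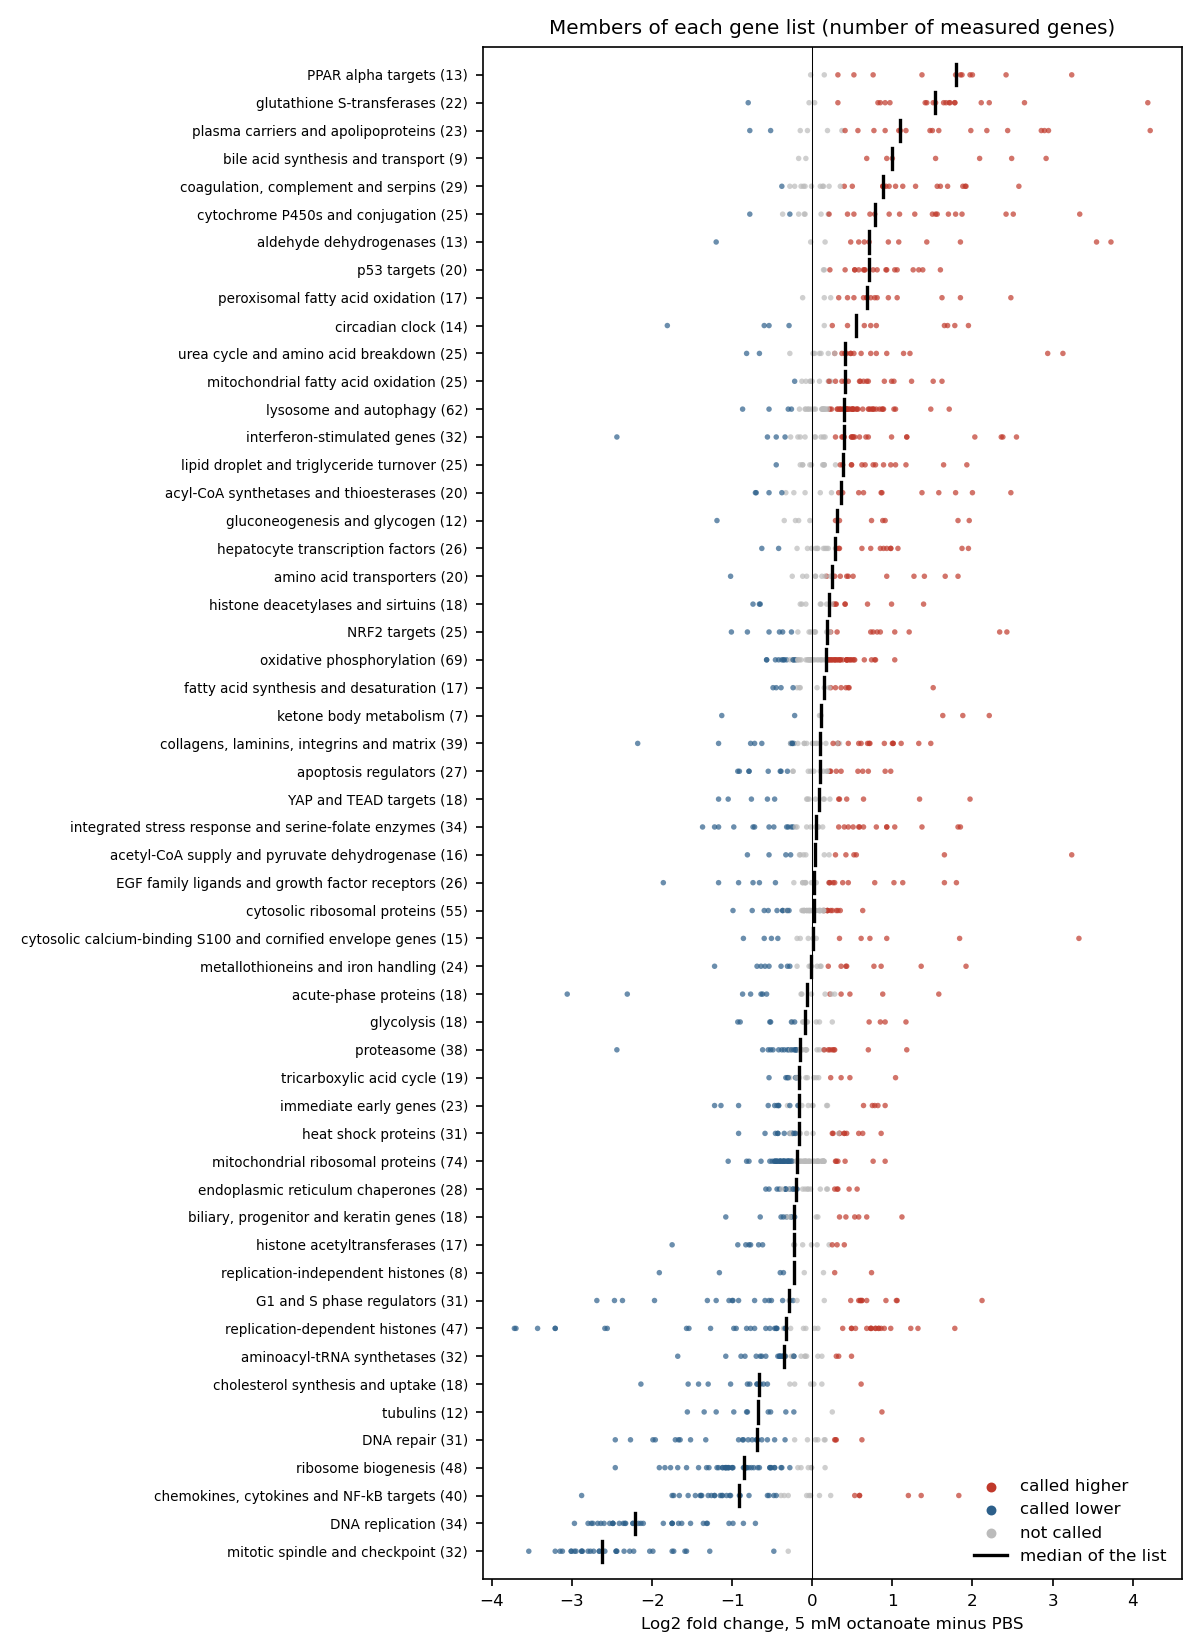
Log2 fold change at 5 mM octanoate minus PBS (horizontal axis) of the measured members of 54 gene lists (rows, with the number measured), 1 point a gene coloured by its call and a black bar at the list's median. PPAR alpha targets (median 1.79) and glutathione S-transferases (1.53) stand at one end and mitotic spindle (−2.62) and DNA replication genes (−2.21) at the other.

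Chemokines, cytokines and NF-kB targets were lower in 26 of 40 cases, 19 by at least 2-fold, and higher in 6. The shares over all genes were 26.7%, 5.05% and 31.9%. The median of the list was −0.91 (BeadChip value −0.82 with 4 called higher and 21 lower). Ccl20, which attracts CCR6-bearing lymphocytes, was at 6.39, 6.25, 6.97 and 6.65 on the 5 mM arrays, compared with 9.76, 9.39, 9.59, 9.56 and 8.91 on the PBS arrays. Ccl2, the monocyte attractant, was at 11.26, 10.87, 11.30 and 11.13 at 5 mM, against 12.54, 12.60, 12.40, 12.59 and 12.52 in PBS cells. Cxcl1, the neutrophil attractant, fell 2.75-fold and the adhesion molecule Vcam1 3.31-fold, with probes of Vcam1 from −1.73 to −0.39. Acute-phase proteins had 7 of 18 lower and 5 higher (median −0.07, BeadChip value −0.29 with 2 called higher and 5 lower). Saa3, an acute-phase apolipoprotein, was at 5.59, 5.62, 5.39 and 5.30 at 5 mM octanoate, compared with 8.45, 8.32, 8.45, 8.62 and 8.85 with PBS, and Lcn2, which binds bacterial siderophores, at 5.78, 5.91, 5.90 and 6.27 on the 5 mM arrays, against 8.24, 8.14, 8.56, 8.32 and 8.11 on the PBS arrays. The endotoxin coreceptor Cd14 fell by 0.87, while Hpx, the plasma haem carrier, rose by 1.58 ± 0.09.

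Interferon-stimulated genes had 19 of 32 higher and 4 lower, against 31.9% and 26.7% of all genes. Their median was 0.39 (BeadChip value 0.45 with 12 called higher and 1 lower). Ifi27 was at 7.70, 7.55, 7.56 and 7.53 at 5 mM, compared with 5.12, 5.51, 5.12, 5.05 and 5.22 in PBS cells. Ifitm3, which blocks viral entry, rose by 2.36 ± 0.14, with 2 of 5 PBS arrays detected. Usp18, the protease that removes ISG15, was detected on no PBS array by its brightest probe and was at least 4.7-fold higher, and another of its probes gave 0.61. Psmb10, an inducible subunit of the immunoproteasome, opposed them at 7.55 to 7.75 on the 4 arrays at 5 mM, against 9.88 to 10.22 on the 5 PBS arrays, 5.44-fold lower. Psmb9, a further subunit of the immunoproteasome, was higher by 1.18 ± 0.12, at 6.09, 5.94, 6.05 and 5.93 on the 5 mM arrays, compared with 4.88, 4.68, 4.79, 5.10 and 4.68 on the PBS arrays. Only 2 of 5 PBS arrays detected Psmb9, and its difference was 0.20 with the authors' processed values. Transcript signals for subunits of 1 complex thus moved in opposite directions, that of Psmb9 from near background. The whole proteasome list had 16 of 38 lower and 8 higher (median −0.15, BeadChip value −0.22 with 2 called higher and 3 lower). Psmd7 and Psme3 fell by 0.52 and 0.62, and their BeadChip values of −0.41 and −0.51 were not called (adjusted p = 0.0955 and 0.104).

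Genes of ribosome biogenesis were mostly lower. Of 48 genes of ribosome biogenesis 42 fell, 21 by at least 2-fold, and 0 rose (median −0.85, BeadChip value −0.93 with 0 called higher and 31 lower). Tcof1, treacle of the nucleolus, was at 7.75 to 8.16 on the 4 arrays at 5 mM, against 10.42 to 10.50 on the 5 PBS arrays. Ncl, nucleolin, was at 8.23 to 8.52 on the 4 arrays at 5 mM, against 9.89 to 10.16 on the 5 PBS arrays. Rrp15, of large subunit maturation, fell by 1.91 and Gar1, of the pseudouridylating box H/ACA particles, by 1.57. Structural proteins of the cytosolic ribosome had 10 of 55 higher and 9 lower, against 31.9% and 26.7% of all genes (median 0.02, BeadChip value 0.01 with 4 called higher and 5 lower). Rpl22 rose by 0.63, Rpl14, Rps15a and Rplp0 fell by 0.99, 0.75 and 0.60, and the BeadChip value of Rps15a was not called (adjusted p = 0.0722). Mitochondrial ribosomal proteins had 32 of 74 lower and 6 higher (median −0.19, BeadChip value −0.20 with 1 called higher and 12 lower). Mrpl54 fell by 1.05, Mrpl3 by 0.82 and Mrps28 by 0.79, and Mrps6 rose by 0.91 with a BeadChip value of 0.58 that was not called (adjusted p = 0.059). Aminoacyl-tRNA synthetases had 20 of 32 lower and 3 higher (median −0.35, BeadChip value −0.25 with 0 called higher and 10 lower). Vars, for valine, was at 9.01, 9.21, 9.15 and 9.11 on the 5 mM arrays, against 10.91, 10.85, 10.72, 10.76 and 10.74 on the PBS arrays. Mars2 and Cars2, of mitochondria, fell by 1.08 and 0.63, and the cytosolic Mars1 by 0.70, with a further probe of Cars2 at −0.05.

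Lysosome and autophagy genes had 40 of 62 higher and 4 lower, against 31.9% and 26.7% (median 0.40, BeadChip value 0.30 with 19 called higher and 3 lower). Ctsh, cathepsin H, was at 10.79, 10.79, 10.76 and 10.68 at 5 mM, compared with 8.96, 9.09, 8.82, 9.06 and 9.25 in PBS cells. Gabarapl1, a ubiquitin-like protein of autophagosomes, was at 9.89, 10.02, 9.99 and 9.98 at 5 mM octanoate, against 8.36, 8.54, 8.43, 8.48 and 8.62 with PBS. Glb1, the lysosomal beta-galactosidase, rose by 1.02, with another probe at −0.23. Amino acid transporters had 11 of 20 higher and 1 lower (median 0.25, BeadChip value 0.36 with 6 called higher and 1 lower). Slc36a1, of the lysosome, rose by 1.27, Slc7a7, the y+L exchanger, by 1.40, and Slc38a3, a glutamine transporter, was at least 2.52-fold higher and detected on no PBS array.

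Stress lists did not share a direction. Over all genes 31.9% were higher and 26.7% lower, and the integrated stress response and heat shock lists lay near these shares. The integrated stress response with serine and folate enzymes had 14 of 34 higher and 12 lower (median 0.05, BeadChip value 0.05 with 9 called higher and 7 lower). Aldh1l2, the mitochondrial formyltetrahydrofolate dehydrogenase, was at 7.28, 6.83, 6.87 and 7.03 on the 5 mM arrays, compared with 5.44, 5.06, 5.09, 5.15 and 5.02 on the PBS arrays, while another probe differed by 0.50. Slc7a3, a cationic amino acid transporter, rose by 1.82, with another probe at 0.03, and the cytosolic folate enzymes Mthfd1 and Shmt1 fell by 1.17 and 0.98. Endoplasmic reticulum chaperones had 12 of 28 lower and 5 higher (median −0.20, BeadChip value −0.08 with 2 called higher and 2 lower). Hyou1 and Calr fell by 0.54 and 0.41, Edem2 and Selenos rose by 0.56 and 0.46, and the BeadChip value of Hyou1 was −1.12, while that of Calr was not called (adjusted p = 0.124). Heat shock proteins had 11 of 31 lower and 10 higher (median −0.17, BeadChip value −0.05 with 3 called higher and 4 lower). Hspa2 rose by 0.86 and Hspa4 fell by 0.92, and Hspb6 and Hspd1 fell by 0.59 and 0.46 with BeadChip values that were not called (adjusted p = 0.127 and 0.0569). Immediate early genes had 10 of 23 lower and 5 higher (median −0.17, BeadChip value −0.23 with 2 called higher and 4 lower). Atf3 was at 5.53, 5.96, 5.70 and 5.39 at 5 mM, against 6.79, 6.93, 6.76, 6.99 and 6.87 in PBS cells, Maff fell by 1.14 (BeadChip value −1.76), and Klf4 rose by 0.91 with a BeadChip value of 0.37 that was not called (adjusted p = 0.277).

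Clock genes had 9 of 14 higher and 4 lower, against 31.9% and 26.7% of all genes. Their median was 0.54 (BeadChip value 0.75 with 7 called higher and 2 lower). Per2, a repressor of the clock, was at 8.80, 8.88, 8.93 and 8.95 at 5 mM octanoate, compared with 7.14, 7.11, 7.33, 7.17 and 7.26 with PBS. Dbp, a clock output factor, was at 9.36, 9.50, 9.55 and 9.60 on the 5 mM arrays, against 7.91, 7.94, 7.63, 7.94 and 7.86 on the PBS arrays, and Bhlhe40, which represses CLOCK and BMAL1 targets, at 9.76, 9.76, 9.53 and 9.60 at 5 mM, compared with 11.47, 11.47, 11.60, 11.35 and 11.47 in PBS cells. All 3 genes were separated between the groups, Per2 and Dbp upward and Bhlhe40 downward.

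Growth factors and matrix genes went both ways. EGF family ligands and growth factor receptors had 11 of 26 higher (42.3%) and 6 lower (23.1%), against 31.9% and 26.7% of all genes (median 0.02, BeadChip value 0.11 with 6 called higher and 3 lower). Fgf1 was at 8.13, 7.95, 7.88 and 7.99 at 5 mM octanoate, against 6.05, 6.12, 6.16, 6.36 and 6.28 with PBS. Btc, betacellulin, an EGF receptor ligand, rose by 1.65 and Igf2r, which clears insulin-like growth factor 2, by 1.13, while Pdgfb fell by 1.86, with another probe at −0.60. YAP and TEAD targets had 6 of 18 higher and 5 lower (median 0.09, BeadChip value 0.17 with 4 called higher and 4 lower). Ccn2, connective tissue growth factor, was at 14.58, 14.51, 14.69 and 14.56 on the 5 mM arrays, compared with 13.22, 13.14, 13.36, 13.27 and 13.21 on the PBS arrays, Nt5e rose by 1.97 (another probe at 0.94), and Tgfb2 and Crim1 fell by 1.17 and 0.76, with another probe of Crim1 at −0.03. Collagens, laminins, integrins and matrix genes had 16 of 39 higher and 9 lower (median 0.10, BeadChip value 0.45 with 14 called higher and 3 lower). The BeadChip fit called 16.1% of all genes higher and 12% lower. Fn1, fibronectin, rose by 1.11, with another probe at −0.13, and Sparc by 1.01. Pcolce2, an enhancer of procollagen processing, was at 5.88, 6.06, 6.39 and 6.38 at 5 mM, against 8.56, 8.39, 8.38, 8.34 and 8.13 in PBS cells, and the integrin Itgb1 fell by 1.17.

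Metallothioneins and iron handling had 8 of 24 higher and 8 lower, near the 31.9% and 26.7% of all genes. Their median was −0.01 (BeadChip value 0.13 with 4 called higher and 2 lower). Tfrc, the transferrin receptor, was at 10.01, 9.76, 9.98 and 9.96 at 5 mM octanoate, compared with 11.17, 11.17, 11.20, 10.96 and 11.24 with PBS. Hfe, its partner in iron sensing, was at 8.73, 8.29, 8.31 and 8.68 on the 5 mM arrays, against 6.42, 6.62, 6.21, 6.74 and 6.93 on the PBS arrays, while another probe differed by 1.07. Id1, a target of bone morphogenetic protein signalling, rose by 1.36 and the zinc importer Slc39a4 by 0.77. S100 and cornified envelope genes had 6 of 15 higher and 4 lower, also near the shares of all genes. Their median was 0.01 (BeadChip value 0.15 with 3 called higher and 2 lower). Sprr2g was at 8.75, 8.38, 8.59 and 8.69 at 5 mM, compared with 5.34, 5.04, 5.32, 5.17 and 5.50 in PBS cells, Sprr1a rose by 1.84, S100a1 by 0.93 and S100a13 by 0.61, with a BeadChip value of 0.46 for S100a13 that was not called (adjusted p = 0.168).

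The middle doses are given as group means at 24 h. Dose and BeadChip ran together over the series. PBS lay on BeadChip 1, 1 mM on BeadChips 1 and 2, 2 mM on 2 and 3, and 5 mM on 3. The means below do not separate dose from BeadChip. Means at 1 mM and 2 mM lay between those of PBS and 5 mM in 221 of 238 named genes. Most of these genes were named for their difference between PBS and 5 mM, which makes middle means inside that span likely. The share over all genes was not counted. The mean level of Ttr was 8.32 in PBS cells, then 10.02 at 1 mM, 11.03 at 2 mM and 12.54 at 5 mM. That of H2ac15 was 13.64 in PBS cells, then 13.13, 12.83 and 10.20 with rising dose. Pdk4 stood at 5.14, 5.36, 6.32 and 8.38 in the same order of doses. The mean of Ttr was higher at each step of dose, while most of the difference in H2ac15 and Pdk4 lay between 2 mM and 5 mM. Saa3 and Lcn2 were the 2 named genes with a middle dose outside the span of PBS and 5 mM by at least 0.5 log2 units. Saa3 averaged 8.54 in PBS cells, then 9.64, 9.38 and 5.47 with rising dose, and Lcn2 8.27, 9.61, 9.66 and 5.96. Both thus had means above PBS at 1 mM and 2 mM and below it at 5 mM. The acute-phase list had medians of 0.23 at 1 mM, 0.40 at 2 mM and −0.07 at 5 mM relative to PBS, all against the same PBS arrays. Fitm2 averaged 8.52, 8.46, 8.74 and 10.16, with the 5 mM mean well above the other 3. Aldh1l2 averaged 5.15 in PBS cells, 5.19 at 1 mM and 4.74 at 2 mM, all below the lowest 5 mM array at 6.83.

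**Figure D5:**
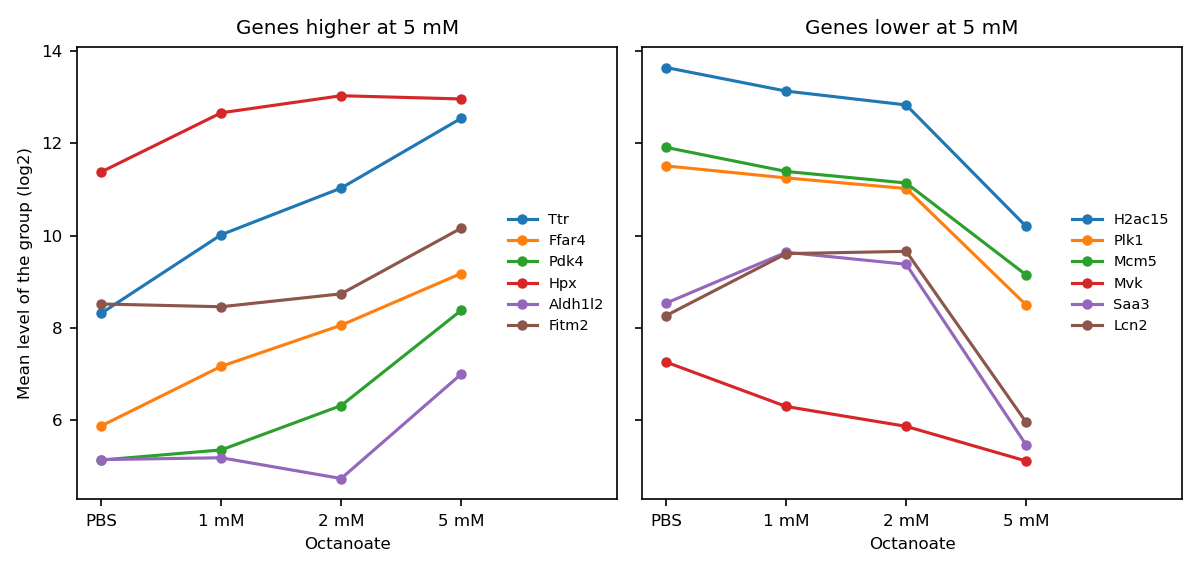
Mean log2 level of the group (vertical axis) with PBS and with 1, 2 and 5 mM octanoate (horizontal axis, evenly spaced) for 6 genes higher and 6 genes lower at 5 mM. Saa3 and Lcn2 stand above PBS at 1 mM and 2 mM and below it at 5 mM.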

How the data were processed

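The authors deposited, per the file headers, for each array the mean bead intensity of 45281 probes, neither background-subtracted nor normalized, and beside it a detection p-value against negative control beads. A table of processed log2 values was deposited as well, for which the submitters' processing notes name lumi. Its further steps are not given in the sources used here, it correlated at 0.986 to 0.994 with the signals over deviations of bright probes, and it served only as an alternative. Intensities were processed here by limma's neqc step (R 4.3.3, limma 3.58.1, statmod 1.5.0): background correction, an offset of 16, quantile normalization and log2. Quantile normalization removes a shift of most transcripts, and the offset understates fold changes of dim probes. Group means of all 18 arrays (4 groups) were fitted with lmFit and eBayes, with two-sided tests of 5 mM minus PBS and Benjamini-Hochberg adjustment over 20536 probes. Calls were at adjusted p under 0.05. Tested on simulated data, the fit recovered the imposed changes of bright probes, while some changes of dim probes, mostly falls, were missed and their sizes understated. The number of arrays limits the precision.

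Gene symbols of the platform annotation were replaced by those of RefSeq (GRCm38.p6) where the Entrez ID matched (34807 of 34885 probes with 1 symbol matched, 18 probes had several and 10378 none). Of 4361 genes with several tested probes, 122 had probes called in opposite directions. Named are the 20 largest rises and 20 largest falls without overlap of arrays, up to 4 members of each of 54 gene lists with the smallest adjusted p, and the 14 measured genes of a list of 20, in all 238. Members, lists and rules were chosen with earlier results of these data known. Promoter sequences are from RefSeq.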

Additional observations from a re-analysis of the deposited data

Results flagged for a closer look

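For the named genes 476 groups of arrays were tested, with 238 genes at 5 mM and 238 with PBS. Of these groups, 27 (5.67%) had 1 array far from the rest. Its gap to the nearest array, divided by the range of the group, was above Dixon's critical value for the group's size. Chance flags about 5% of groups.

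At 5 mM the arrays were Acot1 at 13.40 in replicate 4 (13.50 to 13.52 in the others) and Aldh1a7 at 7.96 in replicate 2 (8.24 to 8.26 in the others). Others at 5 mM were Ccnd2 at 11.49 in replicate 3 (11.62 to 11.65 in the others) and D17H6S56E-5 at 7.43 in replicate 1 (6.81 to 6.91 in the others). Further cases were Ep300 at 9.34 in replicate 2 (9.57 to 9.60 in the others) and Fas at 10.75 in replicate 1 (10.51 to 10.52 in the others). Added to these were Fitm2 at 10.07 in replicate 4 (10.18 to 10.20 in the others) and Hspd1 at 12.52 in replicate 3 (12.33 to 12.36 in the others). The treated cells also had Macroh2a1 at 11.51 in replicate 2 (11.66 to 11.68 in the others) and Mdh2 at 10.59 in replicate 4 (10.39 to 10.42 in the others). Next came Myc at 5.80 in replicate 4 (5.85 to 5.85 in the others) and Pklr at 7.06 in replicate 3 (7.30 to 7.32 in the others). The 5 mM list ended with S100a1 at 10.69 in replicate 1 (10.52 to 10.54 in the others).

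With PBS the arrays were Abcc4 at 11.34 in replicate 2 (11.15 to 11.20 in the others) and Acaa2 at 8.27 in replicate 3 (8.49 to 8.56 in the others). Others with PBS were Bdh1 at 4.94 in replicate 5 (4.49 to 4.61 in the others) and Crebbp at 5.49 in replicate 4 (5.77 to 5.88 in the others). The PBS arrays also had Dbp at 7.63 in replicate 3 (7.86 to 7.94 in the others) and Fcgrt at 6.40 in replicate 4 (6.55 to 6.59 in the others). Beside these stood Hdac8 at 6.09 in replicate 1 (5.71 to 5.79 in the others) and Idh1 at 10.05 in replicate 5 (9.64 to 9.75 in the others). Listed with them were Keap1 at 9.59 in replicate 3 (9.69 to 9.72 in the others) and Nt5e at 5.35 in replicate 5 (5.60 to 5.68 in the others). PBS cells further had Prodh2 at 5.56 in replicate 1 (5.34 to 5.38 in the others) and Psmd7 at 11.78 in replicate 3 (11.60 to 11.64 in the others). The PBS list ended with Tcof1 at 10.50 in replicate 4 (10.42 to 10.44 in the others) and Tfrc at 10.96 in replicate 4 (11.17 to 11.24 in the others).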

How the results depend on the processing

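With BeadChip as a fixed term 4965 probes were called, 2615 higher and 2350 lower, against 10986, 5586 and 5400 in the reported fit, and 4667 probes were called in the same direction by both fits and 1 in opposite directions. Of 2039 probes called past 2-fold, 2037 kept their sign in that fit and 1881 their call. Median scaling gave 3270 lower probes. Probes higher by at least 2-fold numbered 1101, against 257 with the authors' processed values and 663 with an offset of 50, and probes lower by at least 2-fold 938, against 277 and 619. The cause of the other differences was not tested, while a larger offset shrinks folds of dim probes by construction. Leaving out each replicate gave 10236 to 10622 called probes, 5224 to 5425 higher and 5003 to 5205 lower, with 1084 to 1117 higher and 929 to 962 lower by 2-fold. With the replicate number as a block, over replicates 1 to 4, 10838 probes were called (5470 higher and 5368 lower). Deviations of same-numbered arrays correlated at −0.00534 to 0.0439, so the numbers did not pair the samples.

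Of 234 called named genes 208 kept call and direction under each of the alternatives, 23 lost the call with BeadChip as a fixed term and 8 under another alternative. In the BeadChip fit Actb (0.01), Ep300 (0.04) and Kat2b (−0.19) changed sign, none of them called there. Calr, Elovl6, Fads2, Gapdh and Mdh2 lost their calls under median scaling. The medians of 8 of 54 lists, none larger than 0.09 in size, changed sign under an alternative. In size, the medians of 53 lists moved under an alternative by more than the SD of the list's median between the 5 mM arrays. Dim probes near background limit what the arrays can show, and 25 of 10605 genes were detected on none of the 9 arrays.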
